A study of Mus musculus with 3 samples.

Results

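The culture with IL-6 and TGFb1 was compared with the culture in medium, each measured on 1 array. The cells were naive CD4+ T cells, the helper T lymphocytes that have not yet met antigen, from wild type C57BL/6 mice that were 8 weeks old. The medium group received vehicle. The other group received the cytokines IL-6 and TGFb1 together, and a further array held cells cultured with IL-21. These 2 of the series' 3 samples carry the comparison, and 11003 of 19935 genes on the array were compared. A gene entered when it had a probe set with exactly 1 gene symbol and when its highest intensity on the 3 arrays reached 187, the median of all values. Where a gene had several probe sets, the one with the highest mean stood for it. Differences are log2(intensity + 1) with IL-6 and TGFb1 minus that with medium, so a difference of 1 is 2-fold. The labels give no dose, no time in culture and no statement on T cell receptor stimulation, and they do not say how many mice were pooled. No array had IL-6 alone or TGFb1 alone, so the effects of these cytokines cannot be told apart. A single array stood for each group, so no test could be made and every difference below lacks a replicate error.

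T cell identity was checked by marker genes. All 11 CD4 T cell markers with a named probe set were above the brightness limit on both arrays. Cd3e, a chain of the T cell receptor complex, had intensities of 6294 in medium and 6069 under IL-6 and TGFb1, and Cd4, the coreceptor of helper cells, had 6858 and 6077. Markers of natural killer cells (9 genes) and of granulocytes and mast cells (15 genes) were all below the limit on both arrays. The summed intensity of the 9 killer cell markers was 848 in medium and 905 under IL-6 and TGFb1. That of 11 B cell markers was 1925 and 1959, with 3 of them above the limit on each array. Of 23 macrophage and dendritic cell markers, 5 and 6 were above it, with sums of 4212 and 3959. Of 12 stromal and endothelial markers 6 were above it on both arrays, with sums of 2703 and 2522. Erythroid and platelet markers had 2 and 3 of 7 above it, and gamma-delta T cell markers 1 of 4 on both. The CD8 coreceptor gene Cd8b1 was above the limit (810 and 616), while Cd8a was not (163 and 155). The part of other cells in the differences was not tested. In bulk RNA, fewer cells of a type and less RNA per cell cannot be told apart.

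IL-6 signals through its receptor chains Il6ra and Il6st to the kinase JAK1 and the transcription factor STAT3, and SOCS3 limits that signal. TGF-beta binds a receptor pair that phosphorylates SMAD2 and SMAD3, and SMAD7 restrains it. In activated naive CD4+ T cells both signals together are known to favour the Th17 lineage, which makes IL-17A, IL-17F and IL-21, with RORa, BATF, IRF4, MAF and AHR among its regulators. The genes Il22 and Il1r1 were not analysed here.

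Promoters of 6 genes are shown because they carry motifs of factors that act in this pathway, or because the neighbouring cytokine genes Il17f and Il17a differed in the data. Each is the 250 bases before the transcript start on the gene's own strand, from RefSeq sequence of build GRCm38.p6. Capitals mark a nuclear receptor core site (AGGTCA, or TGACCT on the other strand), a STAT site (TTCNNNGAA) or an AP-1 site (TGANTCA).
Il17f, chr1:20784271-20784520, minus strand: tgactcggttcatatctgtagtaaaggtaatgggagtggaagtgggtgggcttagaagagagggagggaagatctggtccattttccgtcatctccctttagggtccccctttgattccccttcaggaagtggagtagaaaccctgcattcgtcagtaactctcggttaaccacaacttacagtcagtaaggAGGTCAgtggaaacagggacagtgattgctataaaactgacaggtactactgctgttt
Il17a, chr1:20730655-20730904, plus strand: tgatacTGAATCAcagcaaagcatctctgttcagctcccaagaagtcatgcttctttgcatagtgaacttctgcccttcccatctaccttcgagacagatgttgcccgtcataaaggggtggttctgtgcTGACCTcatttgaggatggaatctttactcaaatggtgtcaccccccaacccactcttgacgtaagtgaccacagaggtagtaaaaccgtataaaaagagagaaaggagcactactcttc
Il23r, chr6:67491856-67492105, minus strand: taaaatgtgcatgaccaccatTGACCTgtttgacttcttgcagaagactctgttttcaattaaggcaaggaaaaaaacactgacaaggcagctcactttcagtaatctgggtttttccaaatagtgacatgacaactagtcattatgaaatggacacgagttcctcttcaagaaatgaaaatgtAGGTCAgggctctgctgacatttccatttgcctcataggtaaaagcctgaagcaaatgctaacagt
Socs3, chr11:117969367-117969616, minus strand: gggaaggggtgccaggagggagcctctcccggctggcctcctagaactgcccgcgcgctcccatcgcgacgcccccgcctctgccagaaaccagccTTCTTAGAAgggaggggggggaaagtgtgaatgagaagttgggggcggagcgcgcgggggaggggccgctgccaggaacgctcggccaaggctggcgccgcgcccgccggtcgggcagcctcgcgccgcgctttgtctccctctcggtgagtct
Emp1, chr6:135362681-135362930, plus strand: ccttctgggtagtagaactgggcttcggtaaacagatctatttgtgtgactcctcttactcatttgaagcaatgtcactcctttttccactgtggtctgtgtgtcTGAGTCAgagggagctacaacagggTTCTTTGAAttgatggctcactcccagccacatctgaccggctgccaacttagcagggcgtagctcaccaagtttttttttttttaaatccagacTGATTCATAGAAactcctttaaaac
Il9, chr13:56482258-56482507, minus strand: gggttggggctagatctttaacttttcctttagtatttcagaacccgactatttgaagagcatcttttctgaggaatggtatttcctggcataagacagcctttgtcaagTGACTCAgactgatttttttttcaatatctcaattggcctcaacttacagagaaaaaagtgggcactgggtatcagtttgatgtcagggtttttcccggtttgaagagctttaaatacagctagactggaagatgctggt
The nuclear receptor site of Il17f lay at bases -58 to -53 from the start, and that of Il17a at -120 to -115 on the other strand. Il23r had such a site on each strand, and Socs3 had a STAT site at -154 to -146. Emp1 held 2 STAT and 2 AP-1 matches, and 1 match of each kind overlapped near the start, at -25 to -19 and -22 to -14.

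IL-6 and TGFb1 left 74 genes at least 2-fold above medium (0.673% of 11003) and 40 at least 2-fold below it (0.364%), together 1.04%. At any size of difference, 56.3% of the compared genes were above medium and 36.6% below it. The genes farthest above medium were Il21, Il23r, the leukotriene receptor gene Cysltr1 and Il17f, the 4 genes more than 8-fold higher. Eomes, a T-box factor of cytotoxic and memory T cells, was the 1 gene more than 8-fold lower. At 4-fold, 17 genes remained on the higher side and 7 on the lower. The 5th and 95th percentiles of all differences were -0.25 and 0.43, with a median of 0.02, and 784 genes had exactly the same intensity on both arrays. When genes were ordered by brightness and cut into 4 equal bins, the share past 2-fold was 1.13% in the dimmest bin, then 1.71% and 0.909%, and 0.400% in the brightest. On the medium array 22 of the 74 higher genes were below the brightness limit, and 11 of the 40 lower genes were below it with IL-6 and TGFb1, so their differences rest on a dim value. Among the higher genes 8 reached the limit on the IL-6 and TGFb1 array alone, and could enter only as higher than medium. Just inside the 2-fold line were Cdkn2d (1.001), Stra6 (1.01) and Castor1 (1.03), and Nkg7 (-1.004), Slamf6 (-1.02) and Unc93b1 (-1.02) on the lower side. Just outside were Hipk2, Galc and Rbm12b2 (0.99 or more), and Atp8b4 (-0.99), Spin4 (-0.99) and Hlcs (-0.97). The dimmest gene compared was Syndig1, with a highest intensity of 187.1, and the brightest gene left out was Slc18a3, also at 187.1.

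**Figure D1:**
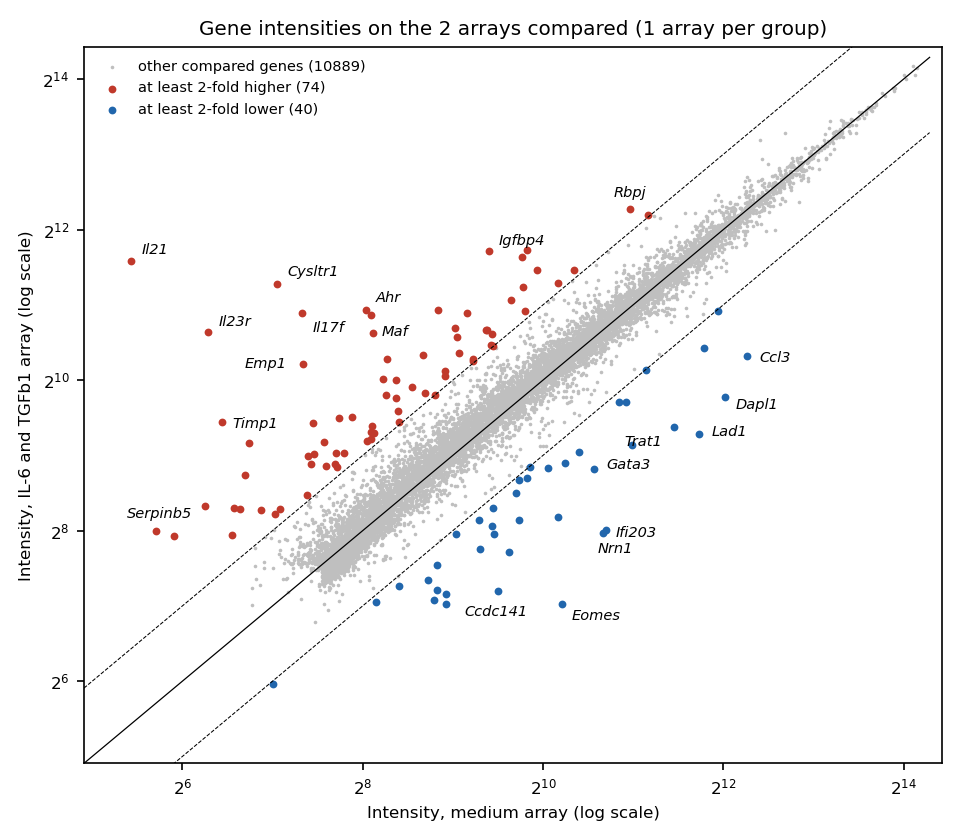
Intensity of each compared gene in medium (horizontal axis) and under IL-6 and TGFb1 (vertical axis), both on log scales, 1 array each. The solid line marks equal intensity and the dashed lines 2-fold; 74 genes lie above the upper line (red) and 40 below the lower one (blue), with Il21 and Eomes farthest out.

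The cytokine genes of the Th17 lineage differed widely among themselves. Il21, the autocrine growth cytokine of Th17 and follicular helper cells, had an intensity of 43.0 in medium, 1780.0 under IL-21 and 3073 under IL-6 and TGFb1 (difference 6.13). Il17f was at 160.3 in medium, 185 under IL-21 and 1896 under IL-6 and TGFb1, a difference of 3.56. Il17a, its neighbour on the chromosome and the better known Th17 cytokine gene, was near the brightness limit on all arrays, at 175, 125 and 193, and its difference was 0.15. Il17f was thus high on 1 array alone, whereas Il17a was low on all 3. Il9, the T cell and mast cell growth factor gene, was at 221, 229 and 524 (difference 1.24). The chemokine gene Ccl20, which draws CCR6-bearing cells, was at 136, 130.0 and 214 (0.65). Of 12 listed Th17 cytokine genes 8 were compared, and 7 of them were above medium, 3 at least 2-fold (37.5%, against 0.673% of all). Of the 8, Il17f, Il17a and Ccl20 reached the brightness limit on the IL-6 and TGFb1 array alone, so the limit itself sets their direction and the count is only a description. Il10 and Csf2, which encode IL-10 and GM-CSF, were below the brightness limit on all arrays, at 146 and 89.5 with IL-6 and TGFb1.

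Among receptor genes of the lineage Il23r stood highest. It encodes the IL-23 receptor subunit that sustains Th17 cells, and was at 77.9 in medium, 418 under IL-21 and 1596 under IL-6 and TGFb1. Il12rb1, the chain it pairs with, was bright on every array (2453, 2541 and 3044) and had a difference of 0.31. Ccr6, the chemokine receptor of Th17 cells, was at 263, 183 and 446 (0.76). Il18r1, an IL-18 receptor chain gene listed with Th1 and cytotoxic genes rather than Th17 receptors, was at 174, 395 and 687 (1.97). Its partner Il18rap had a difference of 0.51. The 13 compared genes of the list of 17 Th17 receptors had a median of 0.26, with 8 above medium, 4 below and 1 at 0. The share above medium, 61.5%, was close to the 56.3% of all compared genes. Il10ra, the ligand-binding IL-10 receptor chain, was the lowest at -0.65, from 798 to 508.

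**Figure D2:**
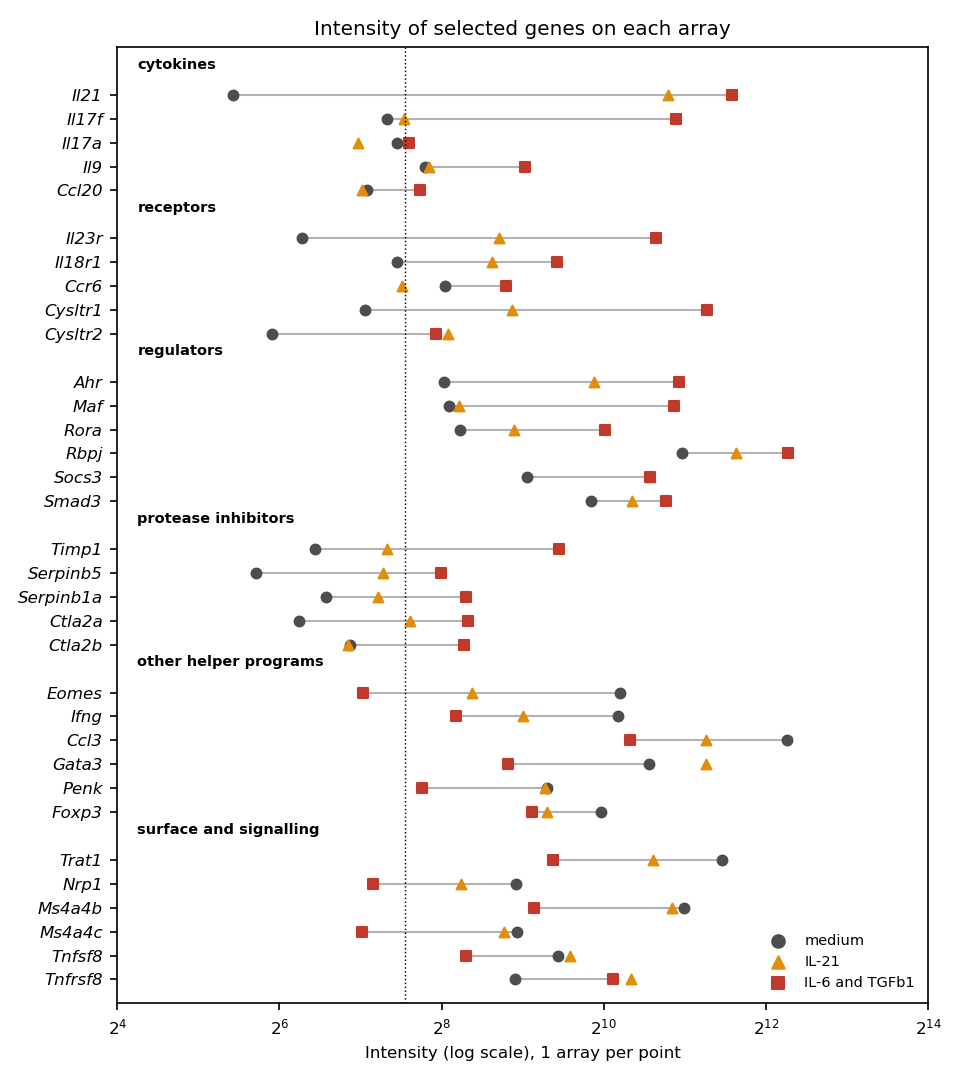
Intensity of 33 genes on the medium (grey circles), IL-21 (orange triangles) and IL-6 and TGFb1 (red squares) arrays, log scale, 1 array per point; the dotted line is the brightness limit of 187 and grey bars join medium with IL-6 and TGFb1. Il17f and Maf lie near medium with IL-21 and far above it with IL-6 and TGFb1, and Gata3 lies on opposite sides of medium; the IL-21 point of Socs3 is hidden at 1516.

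Among transcription regulators, those of the Th17 program formed the upper end. Ahr, the ligand-activated receptor that promotes IL-22 and IL-17 production, was at 262 in medium, 941 under IL-21 and 1950.0 under IL-6 and TGFb1 (2.89). Maf, a basic leucine zipper factor of Th17 and follicular helper cells, was at 273, 296 and 1865 (2.77). Rora, which encodes RORa, was at 298, 475 and 1036 (1.79). These 3 genes had their highest value with IL-6 and TGFb1, and Maf was close to medium with IL-21. Rbpj, the DNA-binding partner of Notch, went from 1996 to 4932 (1.30), although its dim second probe set had a difference of -0.11. Factors that act early in the lineage were bright already with medium and differed little: Irf4 by 0.06 (5527 and 5757), Batf by 0.35, Stat3 by 0.31 and Hif1a by 0.36. The chromatin organizer gene Satb1 had a difference of 0.78, from 5422 to 9305. In the list of 26 regulators 24 were compared. Of these, 19 were above medium (79.2%, against 56.3% of all compared genes) and 5 below. The median was 0.33 against 0.02 over all genes. At least 2-fold higher were 5 (20.8%, against 0.673% of all). These were Ahr, Maf, Rora and the genes Fosl2 (1.15) and Bcl3 (1.11) of the AP-1 and NF-kB families. Lowest of the list was Tbx21, the Th1 factor T-bet, at -0.47.

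Genes that separate inflammatory from regulatory Th17 cells in other work were listed as well. Of 15 inflammatory genes 11 were compared. At least 2-fold higher was 1 (9.09%, against 0.673% of all compared genes), Il23r. At least 2-fold lower were 2 (18.2%, against 0.364%), the chemokine gene Ccl3 (-1.94) and the cytokine gene Il3 (-1.04). The list median was -0.30, and -0.17 with the limit at the 75th percentile. Of 7 regulatory genes 5 were compared, and Ahr, Maf and Il9 were at least 2-fold higher (60%, against 0.673% of all). The median of that list was 1.24, or 0.68 with no brightness limit. Cd5l, a secreted scavenger receptor protein known from such Th17 cells, was at 93.8 in medium, 104 under IL-21 and 245 under IL-6 and TGFb1 (1.38). Sgk1, a salt-sensing kinase, was at 193, 315 and 464 (1.26), and Gpr65, a proton-sensing receptor, at 538, 885 and 1314 (1.29). Cd5l, Sgk1 and Gpr65 stood in neither list, so the counts and medians above do not cover them. Cd5l and Sgk1 were named after their values were seen.

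On the IL-6 side, the receptor and kinase genes lay close to medium and the feedback genes did not all follow. None of the 21 compared genes of the receptor, JAK and STAT list was 2-fold from medium, and the highest were Jak2 and Lif at 0.40. Socs3 was at 529.7 in medium, 1516 under IL-21 and 1517 under IL-6 and TGFb1 (1.52). Its dimmer second probe set went from 224 to 331, a difference of 0.56. The other feedback genes Socs1 (0.17), Socs2 (-0.03) and Cish (0.10) were near medium. Of 31 compared STAT3 target and feedback genes 18 were above medium (58.1%), close to the 56.3% of all compared genes. At least 2-fold higher were 6 (19.4%, against 0.673% of all), namely Il21, Maf, Socs3, Gadd45g (1.36), Fosl2 and Bcl3. The kinase gene Pim2 was the lowest at -0.47. Sbno2, a transcription coregulator induced by IL-10 and STAT3 in macrophages, had a difference of 1.06.

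On the TGF-beta side, no ligand, receptor or SMAD gene reached 2-fold, but Smad3 and the BMP receptor gene Bmpr1a (0.98) came near it. Smad3 was at 921 in medium, 1302 under IL-21 and 1742 under IL-6 and TGFb1 (0.92). Smad7, the inhibitory SMAD that TGF-beta induces, had a difference of 0.41, and Smad6 one of -0.28. Tgfbr1 (-0.01) and Tgfbr2 (0.18) were near medium, and the coreceptor gene Tgfbr3 was at 0.54. Of 19 compared genes of this list 14 were above medium (73.7%, against 56.3% of all). The median was 0.15, or 0.05 with no brightness limit. Among 31 compared regulators and targets, Pmepa1, a TGF-beta-induced feedback inhibitor, was at 1065, 1196 and 2107 (0.98). Furin, the protease that processes the TGF-beta precursor, was at 1537, 1380.3 and 2964 (0.95). The corepressor genes Skil (0.32) and Ski (0.29) were slightly higher. Lrrc32, which anchors latent TGF-beta on regulatory T cells, was lower (1214 to 478, -1.34), as was the semaphorin coreceptor gene Nrp1 (485 to 142, -1.76).

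**Figure D3:**
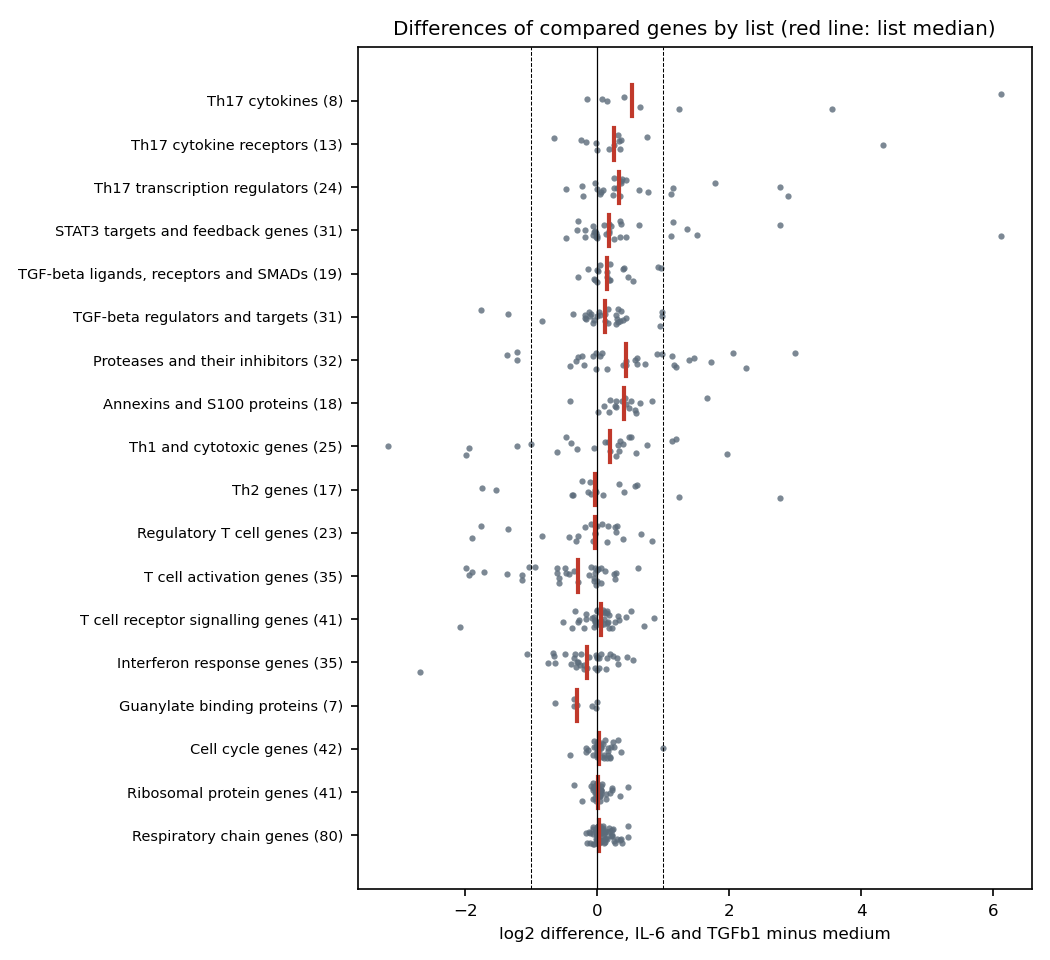
log2 difference of each compared gene (grey points, 1 array minus 1 array) in 18 gene lists, with the number of compared genes in brackets and the list median as a red line; dashed lines mark 2-fold. The Th17 cytokine median is 0.53, that of the T cell activation list is -0.29, and the cell cycle, ribosomal and respiratory lists lie around 0.

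Eomes, Ifng, Ccl3 and Gata3, genes of the other helper lineages, were among the 20 lowest differences. In the Th1 and cytotoxic list 25 of 36 genes were compared. At least 2-fold higher were 3 (12%, against 0.673% of all compared genes), and 5 were lower (20%, against 0.364%). The lower ones were Eomes (1180.3 to 131), Ifng (1153 to 289.9), Ccl3 (4915 to 1277), the granzyme B inhibitor gene Serpinb9 (1060.5 to 455, -1.22) and Nkg7 (2259 to 1126). The higher ones were Il18r1, the lymphocyte cathepsin gene Ctsw (336 to 769, 1.19) and the cystatin gene Cst7 (1145 to 2505, 1.13). The granule effector genes Gzmb (0.48), Prf1 (0.39) and Gzma (0.34) were not lower. Of 10 listed granzyme genes, 7 were too dim to compare. The list median was 0.19, and -0.05 with a brightness limit at the 75th percentile.

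Gata3, the master factor of Th2 cells, was at 1513 in medium, 2451 under IL-21 and 453 under IL-6 and TGFb1 (-1.74). The enkephalin precursor gene Penk was at 632, 619 and 217 (-1.54). The Th2 cytokine genes Il4 (-0.38) and Il13 (-0.14) were dim and close to medium. Foxp3, the factor of regulatory T cells, was at 997, 629 and 556 (-0.84). Of 23 compared regulatory T cell genes none was 2-fold higher and 3 were lower, Cd83 (-1.90), Nrp1 and Lrrc32. The actin-capping gene Capg (0.83) and the ectonucleotidase gene Entpd1 (0.67) were the highest of that list. Among 20 compared follicular helper genes Il21 was higher and Slamf6, a receptor of T and B cell contact, was lower (3924 to 1940.5). Pou2af1, a coactivator, had a difference of 0.94, and Cxcr5, which guides cells to follicles, one of -0.39.

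The T cell activation list was mostly below medium. Of 35 compared genes 26 were lower (74.3%, against 36.6% of all compared genes) and 9 higher. The median was -0.29 (-0.19 with the limit at the 75th percentile). None was at least 2-fold higher, and 8 were at least 2-fold lower (22.9%, against 0.364% of all). These were Ifng, Ccl3, Cd83, Cd80, Plaur (-1.37), Tnfsf8 (-1.14), Tnfsf11 (-1.13) and Il3, the last dim on both arrays (129 and 62.2). Other members with the same direction were the nuclear receptor gene Nr4a3 (2496 to 1296, -0.95), Il2 (2445 to 1604, -0.61), the early activation antigen gene Cd69 (-0.58) and the transferrin receptor gene Tfrc (-0.57). Il2ra (-0.03), Egr1 (0.12), Nr4a1 (0.06), Myc (-0.29) and Tnf (-0.05) lay nearer to medium. The median of the list with IL-21 was -0.12, a comparison that uses the same medium array. Signalling genes of the T cell receptor showed no such tilt. Of 41 compared genes 23 were above medium and 16 below, with a median of 0.05. Trat1, an adaptor that stabilizes receptor chains at the surface, was the exception at -2.07, at 2803, 1560.4 and 665 on the medium, IL-21 and cytokine pair arrays. Malt1, a protease of antigen receptor signalling, had the highest difference (0.86).

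Genes of naive cells and of migration went both ways. Dapl1 was at 4139, 2551 and 876 (-2.24) and the repressor gene Klf3 at 625, 379 and 282 (-1.15). The IL-7 receptor gene Il7r was at 989, 1481 and 1827 (0.89), and S1pr1, the receptor that lets lymphocytes leave lymph nodes, at 273, 393 and 595 (1.12). Ccr7, which guides cells into lymph nodes, had a difference of -0.05. Igfbp4, a binding protein of insulin-like growth factors, was 4.98-fold higher. Among chemokines 5 of 7 compared genes were below medium (71.4%, against 36.6% of all), including Ccl4 and Ccl22 (-0.61 and -0.62). Integrin genes also divided: Itga3 (172 to 473, 1.45) and the gut-homing chain gene Itgb7 (0.69) were higher, and Itgb1 (2061 to 1131, -0.87) and Itgb3 (704 to 382, -0.88) were lower.

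Surface receptors and their ligands gave several contrasts within a pair or family. Tnfrsf8, which encodes CD30, was at 480.0 in medium, 1297 under IL-21 and 1112 under IL-6 and TGFb1 (1.21), while its ligand gene Tnfsf8 was at 694, 769 and 314 (-1.14). Both leukotriene receptor genes were higher, Cysltr1 from 133 to 2484 (4.22) and Cysltr2 from 59.8 to 243 (2.01). Of 28 listed genes of leukotriene and prostaglandin biology 15 were too dim to compare, among them the leukotriene synthesis genes Alox5, Alox5ap and Ltc4s. Receptor genes of the LILRB4 family were higher, Lilr4b at 2.03 and Lilrb4a at 1.61. Ctla4 (0.16), Pdcd1 (-0.02) and Lag3 (0.33) were near medium. Cd274, which encodes the ligand PD-L1, was at 1200.2, 1210.2 and 696 (-0.79), and Cd226 at 1074, 946 and 619 (-0.79). The costimulatory ligand genes Cd80 and Cd86 lay on opposite sides of medium, at -1.71 and 0.61. Cd80's dimmer probe set had a difference of -0.91.

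Proteases, their inhibitors and transglutaminases held more genes past 2-fold, by count, than any other list. Of 45 listed genes 32 were compared. At least 2-fold higher were 9 (28.1%, against 0.673% of all compared genes) and 3 were lower (9.4%, against 0.364%). The share of higher genes was larger in the shorter lists of Th17 cytokines (37.5% of 8) and regulatory Th17 genes (60% of 5). In the first, 3 genes reached the limit under IL-6 and TGFb1 alone, so these shares are only a description. Timp1, the inhibitor of matrix metalloproteinases, was at 86.9 in medium, 161 under IL-21 and 699 under IL-6 and TGFb1 (2.99). Timp2 had a difference of 0.98. The serpin genes Serpinb5, or maspin (52.4 to 255, 2.26), and Serpinb1a, an inhibitor of neutrophil proteases (95.3 to 316, 1.72), were higher from dim medium values. Serpinb9 and Serpinb6b (1937 to 838, -1.21) were lower. Of 47 listed serpin genes 39 were too dim to compare, and the limit set the direction of Serpinb5 and Serpinb1a. The cysteine protease inhibitor genes Ctla2a (75.9, 196 and 321) and Ctla2b (117, 115 and 310.3) were both higher, with Ctla2b at its medium level with IL-21. They are close copies, and the array may not separate them fully. The metalloprotease gene Adam19 (1.17) and the transglutaminase gene Tgm2 (876 to 2424, 1.47) were higher, and Plaur, the urokinase receptor gene, was lower. Outside the list, the carboxypeptidase gene Cpd (977 to 2831, 1.53) and Tgm1 (1.13), were also higher. Of the 32, 4 reached the brightness limit under IL-6 and TGFb1 alone and 3 in medium alone. The 4 were Timp1, Serpinb5, Serpinb1a and Ctla2b. All are among the 9 higher genes and could enter only as higher, so the limit partly sets the 28.1%. The list median was 0.43, but it was 0.07 with no brightness limit and 0.15 with the limit at the 75th percentile.

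Annexins, S100 proteins and related calcium or actin binding proteins were the list with the most even direction among those of 10 or more compared genes. Of 18 compared genes 17 were above medium, with a median of 0.40. Anxa2, a membrane-binding annexin, was at 407, 1062 and 1291 (1.66), and was the 1 member past 2-fold. Capg (0.83), Crip1 (0.66), Lgals1, which encodes galectin-1 (0.59), Anxa4 (0.58) and Ahnak (0.52) followed. Lgals9, which encodes galectin-9, was below medium (-0.41). Over all compared genes 6194 of 11003 were above medium and 4025 below.

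Few genes of metabolism were far from medium. Gatm, the first enzyme of creatine synthesis, went from 278 to 1578 (2.50), and Smox, which oxidizes spermine, from 569.8 to 1898 (1.73). Cyp11a1, the enzyme that makes pregnenolone from cholesterol, went from 99.6 to 313 (1.64), and Akr1c18, which inactivates progesterone, from 703 to 248 (-1.502). The triglyceride enzyme gene Dgat1 (1.05) and the monoacylglycerol lipase gene Mgll (1.21) were higher, and the enolase gene Eno3 was lower (3518 to 1374, -1.36). Of 184 compared solute carrier genes 1 was past 2-fold (0.543%, against 1.04% of all compared genes), Slc4a11 (213 to 720.5, 1.75). The metal-binding metallothionein gene Mt2 went from 455 to 1950.4 (2.10) and Mt1 from 711 to 1377 (0.95), while Mt3 was at -0.20. None of the 16 zinc handling genes listed with them was 2-fold from medium. Glycolysis and hypoxia genes had a median of 0.02, with the oxygen-sensing hydroxylase gene Egln3 the highest at 0.96. Cholesterol and lipid synthesis genes had a median of 0.00 and no member past 2-fold.

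The large housekeeping groups gave a scale for these values. The medians were 0.01 over 41 ribosomal protein genes, 0.03 over 80 respiratory chain genes and 0.03 over 42 cell cycle genes. Of these the only gene past 2-fold was Cdkn2d, an inhibitor of cyclin-dependent kinases, at 1.001. Proliferation genes such as Mki67 (0.32), Top2a (0.10) and Cdk1 (0.11) were close to medium.

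Interferon-related genes leaned below medium. Of 35 compared genes 23 were lower (65.7%, against 36.6% of all compared genes) and 11 higher (31.4%, against 56.3%), with a median of -0.15. Ifi203 (1619, 602 and 251, -2.68) and the exonuclease gene Isg20 (849.9, 743 and 409, -1.05) were at least 2-fold lower (5.71%, against 0.364% of all). Guanylate binding protein genes, which interferon gamma induces, were at or below medium. Of 7 compared genes 6 were below it (85.7%, against 36.6% of all), and Gbp3 had the same value on both arrays. Gbp7 was the lowest at -0.63 (1065 to 688). Slfn1, a schlafen gene linked to T cell quiescence, had a difference of -0.74, and Unc93b1, the chaperone of endosomal Toll-like receptors, one of -1.02. Without a brightness limit their median was -0.19, against -0.31 with it. With IL-21 the median of the guanylate binding protein list was 0.05, again against the same medium array.

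Genes past 2-fold that lie next to each other on a chromosome, in the order of RefSeq genes with a named probe set, formed 5 pairs with the same direction. On the higher side these were Lilr4b with Lilrb4a, and Cd5l with Fcrl1 (1.19). On the lower side they were Ms4a4b with Ms4a4c, Serpinb6b with Serpinb9, and Itih5 (-1.35) with Sfmbt2 (-1.27). Ms4a4b was at 2028, 1832 and 565, and Ms4a4c at 487, 437 and 129.9. Both tetraspanning membrane protein genes were thus low on the IL-6 and TGFb1 array alone. Of the 7 compared Ms4a genes the other 5 lay between -0.41 and 0.23. The LILRB4, Ms4a4 and serpin pairs are related copies that can share probe signal.

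A second measurement on the same arrays existed for 6 of the 114 genes, through further probe sets. Of these, 5 genes had 8 further probe sets above the brightness limit, and all 8 had the direction of the main one. Past 2-fold were the 4 of Ccdc141, at -3.30, -2.66, -1.82 and -1.74 against -2.29. Those of Cd80, Socs3, Lpp (0.65 against 1.54) and Gmfg (0.38 against 1.03) were below 2-fold. Over all compared genes the median gap between such probe sets was 0.06, and 95% of gaps were under 0.38.

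The 114 genes were sorted by the kind of protein they encode, after their values were seen, to account for each one. Receptors and surface proteins were the largest class with 28 genes, 18 higher and 10 lower. Cytokines and secreted proteins were the only class with more lower (10) than higher (6) genes. Besides those already named, the lower ones included Nrn1, which encodes neuritin (1666, 1258 and 257), Igfbp7 (-1.59) and the anticoagulant gene Pros1 (908, 1413 and 417), and the higher ones Lbp (1.55). Signalling and cell cycle proteins had 14 higher and 4 lower genes. Higher were the kinase gene Alpk2 (107 to 572, 2.41), the adaptor genes Klhl6 (1.91) and Lpxn (1.86), and Abi3, Cyth4, Ncs1, Avpi1, Rab39b, Txnip and Castor1 between 1.03 and 1.68. Lower were Vav3 (-1.07), Ipcef1 (-1.19), Trat1 and the LIM protein gene Ajuba, which was at 423, 1272 and 162. Transcription and chromatin regulators had 7 higher and 6 lower genes, the latter including Utf1 (-1.13). The protease class had 11 and 2. Cytoskeleton and membrane proteins had 7 higher genes, Anxa2, Frmd4b (1.62), Lpp, Myo10 (1.29), Crybg3 (1.18), Syt11 (1.14) and Gmfg, and 2 lower, Lad1 (3401, 1571 and 621, -2.45) and Ccdc141. Enzymes, transporters and metal binding proteins had 7 and 5, the latter with Pld4 (-1.61) and Apobec1 (-1.09). The remaining surface genes were Emp1 (162 to 1188, 2.87), Tspan6 (1.63), Smim3 (1.32), Prnp (1.17), Sema4f (1.09), Susd3 (1.04) and Stra6. The last 5 genes were Plac8 (2.01), Tdrkh (1.60), Dpy19l3 (1.28), AA467197 (1.22) and Dapl1.

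**Figure D4:**
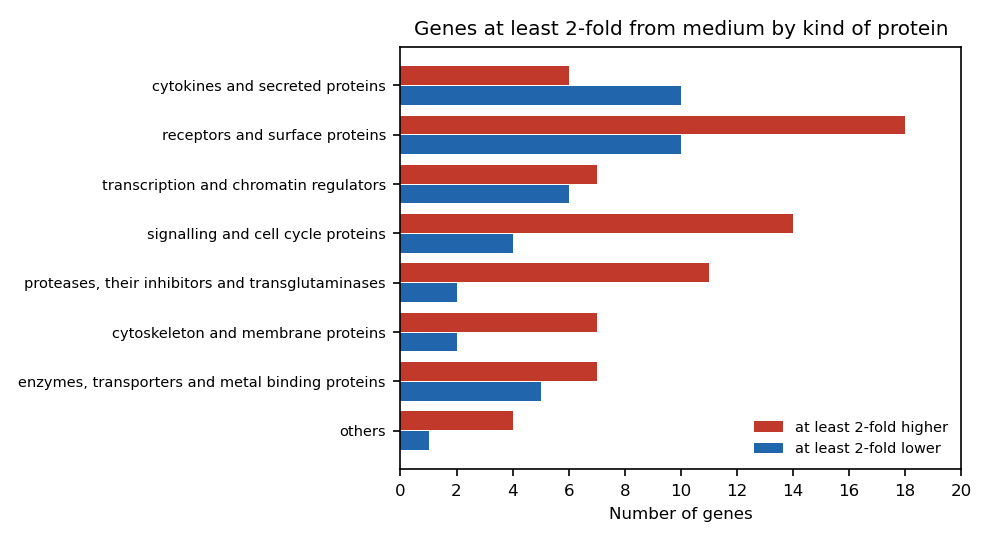
Number of genes at least 2-fold higher (red) and lower (blue) with IL-6 and TGFb1 than with medium, by kind of encoded protein, sorted by hand after the values were seen. Receptors and surface proteins hold 18 higher and 10 lower genes, and cytokines and secreted proteins 6 and 10.

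The promoters of these genes were searched for 6 short motifs on both strands, in the 250 bases before the start. The table of promoters held 60 of the 74 higher genes, 35 of the 40 lower genes and 8899 of the compared genes. The AP-1 site TGANTCA was present in 12 of the 60 higher promoters (20%), 3 of the 35 lower ones (8.57%) and 3.94% of the compared genes. Its 12 holders were AA467197, Anxa2, Ctla2a, Ctla2b, Emp1, Fcrl1, Frmd4b, Il9, Mt2, Prnp, Serpinb5 and Tnfrsf8. The STAT site TTCNNNGAA was in 5 of the higher promoters (8.33%), 4 of the lower ones (11.4%) and 6.01% of the compared genes. The nuclear receptor core AGGTCA was in 6 of the higher (10%), 5 of the lower (14.3%) and 10.8% of the compared promoters. The MAF core TGCTGA was in 12 (20%), 5 (14.3%) and 12.6% of these groups. The SMAD core CAGAC was in 25 (41.7%), 10 (28.6%) and 41.2%. The AHR core GCGTG was in 18 (30%), 8 (22.9%) and 46.2%, so both groups lay below the compared genes. Over all 27025 promoters of the table these shares were 6.87% for AP-1, 7.11% for STAT, 13.96% for AGGTCA, 15.9% for MAF, 42.4% for SMAD and 28.0% for AHR. Base composition differed too: the median number of CG pairs was 8 in the higher, 5 in the lower and 16 in the compared promoters. Its part in the shares was not tested. A match is a run of letters and no evidence of binding.

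**Figure D5:**
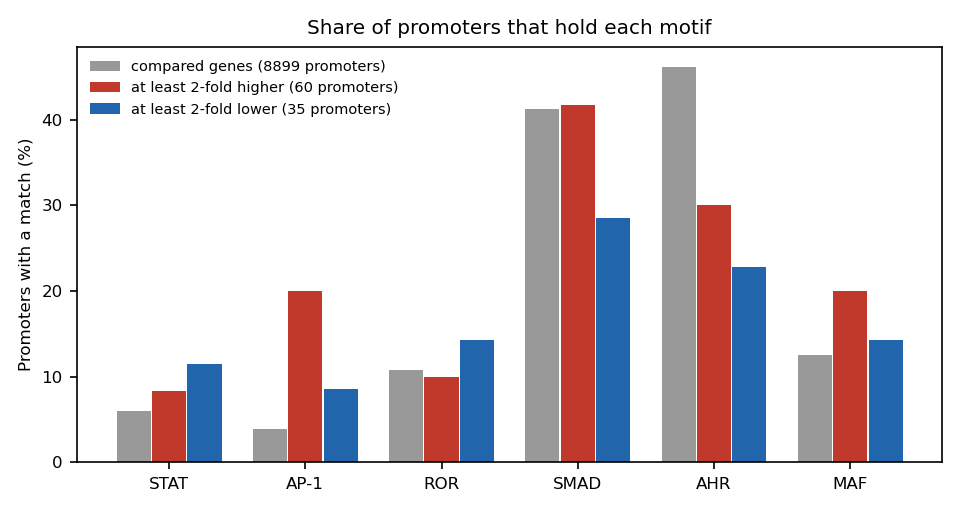
Share of promoters (250 bases before the start) with a match to each of 6 motifs, in percent, for compared genes (grey), genes at least 2-fold higher (red) and lower (blue). AP-1 matches stand in 20% of the higher and 3.94% of the compared promoters, and AHR core matches in 30% and 46.2%.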

How the data were processed

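Biotin-labelled RNA of the 3 cultures was read on Affymetrix arrays, 1 each, per the labels' protocols. The deposited values are intensities on a linear scale, 1 for each of 28815 probe sets and array. The sources used here do not give how the authors summarized and normalized them, and mm8 is the build named in the submitters' processing notes. Array medians were 191 (medium), 182 (IL-21) and 188 (IL-6 and TGFb1). Probe sets with 1 gene symbol in the platform annotation (21780) were used, the differences were taken on the log2(intensity + 1) scale, which understates those of dim genes, and nothing was normalized further. With 1 array per group the number of arrays limits the precision and no test exists, so a gene at least 2-fold from medium was counted.

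The text names the top 20 differences on either side of medium, genes of described lists, fixed lineage genes and genes at the 2-fold line. The members and the 61 gene lists were chosen with earlier results of these data known. List medians describe the compared members alone. Calculations used Python 3.11.15, numpy 2.4.6, pandas 2.3.3 and statsmodels 0.14.6 and were tested on simulated data. The alternatives were another offset, other brightness limits, 3 further normalizations, raised low values, other probe set rules and a choice by the 2 arrays alone. Promoters came from RefSeq, GRCm38.p6, and where a gene had several starts, the one with the lowest chromosome coordinate was used. For genes on the minus strand that is the start farthest downstream.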

Additional observations from a re-analysis of the deposited data

Results flagged for a closer look

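Probe sets outside the comparison also held differences past 2-fold. Among probe sets with several gene symbols, 1 was at least 2-fold higher and 4 were at least 2-fold lower with IL-6 and TGFb1, out of 845 bright enough to compare, with differences from -2.15 to 1.05. Among those with no symbol listed, 7 were higher and 2 lower out of 1980, from -1.28 to 3.29. They were not named here.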

How the results depend on the processing

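The counts of 74 higher and 40 lower genes ranged from 71 to 81 and from 37 to 43 in 9 of the 10 other settings. With the brightness limit at the 75th percentile they were 42 and 26 among 5616 genes, all of them among the 74 and 40. Of the 114 genes, 99 stayed past 2-fold in every setting that kept them and none changed sign. The 15 that did not lay near the 2-fold line in the setting where they fell short, apart from Socs3 (0.56), Rbpj (0.60), Gmfg (0.38) and Lpp (0.78) under other probe set rules, and Cd80 (-0.91) and Il3 (-0.89) lay farthest among the rest. Centring each array moved the split of higher against lower genes from 64.9% to 68.6% higher. Of 56 list medians 36 stayed within 0.1 in every setting. Of the lists whose median was at least 0.1 from 0, 2 changed sign: Th1 and cytotoxic genes to -0.052 with that limit, from 0.19, and serpin genes to -0.011 with no limit, from 0.29. A further 9 lists with medians no farther than 0.034 from 0 also crossed it in some setting, with values from -0.068 to 0.011. The cause was not tested. No paired analysis was possible because each group has 1 array, and for the same reason no replicate could be left out. Dim values limit 22 of the higher and 11 of the lower genes.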
